A study of Mus musculus with 18 samples.

Results

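The 8 genes that supply and guard the deoxynucleotide pool, Rrm1, Rrm2, Rrm2b, Tk1, Tyms, Dut, Samhd1 and Dctpp1, were followed in mouse embryonic stem (ES) cells exposed to cisplatin, a platinum drug that crosslinks DNA. The members were the RefSeq protein-coding rows carrying these symbols, with 1 row per gene, the one with the highest mean CPM (read counts scaled to the size of their library). All 8 were present in both long RNA tables, among 14797 genes in the mRNA table and 13917 genes in the RNAome table. The cells were C57BL/6, HPRT deficient, at passages 19 to 22, and had been moved from feeder cells to gelatin. They were given 2.5 µM cisplatin or the vehicle DMSO, called control here, for a time that the labels do not state. RNA from 6 samples was used: cisplatin samples 8.3.3, 8.4.3 and 8.5.3, and control samples 8.4.16, 8.5.16 and 8.6.16. HPRT, a purine salvage enzyme, was lacking in both groups. Each sample had an mRNA library, from poly(A)-selected RNA, and an RNAome library, from fragmented total RNA depleted of ribosomal RNA. Values for single samples are given below in the order of these codes. The labels do not tie the 3 samples of a group to separate cultures, so p-values cover only the spread among these libraries, and that may be technical.

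Ribonucleotide reductase makes all 4 deoxynucleotides from ribonucleotides, and it joins a large catalytic subunit, RRM1, to a small radical-bearing subunit. In dividing cells that small subunit is mostly RRM2, which is made in S phase. RRM2B, also called p53R2, is an alternative small subunit whose gene is a known target of p53 in human and mouse cells. Thymidylate comes by 2 routes: TYMS methylates dUMP, and TK1 phosphorylates salvaged thymidine. DUT removes dUTP, which yields dUMP and keeps uracil out of DNA. SAMHD1 breaks deoxynucleoside triphosphates down, and DCTPP1 hydrolyses dCTP and its modified forms. ES cells cycle fast with a long S phase, so they draw heavily on this supply.

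The sequences around the reductase genes are shown first, because these 3 subunit genes carry the values described below. The promoters are RefSeq sequences of build GRCm38.p6, running from 250 bases before to 50 bases after the gene start, and 7 of the 8 members were in that table. The Rrm2 window is chr12:24708004-24708303 and the Rrm1 window chr7:102441445-102441744, both on the plus strand. Capitals mark CCAAT, the core of the box bound by NF-Y, searched on both strands.
Rrm2 promoter: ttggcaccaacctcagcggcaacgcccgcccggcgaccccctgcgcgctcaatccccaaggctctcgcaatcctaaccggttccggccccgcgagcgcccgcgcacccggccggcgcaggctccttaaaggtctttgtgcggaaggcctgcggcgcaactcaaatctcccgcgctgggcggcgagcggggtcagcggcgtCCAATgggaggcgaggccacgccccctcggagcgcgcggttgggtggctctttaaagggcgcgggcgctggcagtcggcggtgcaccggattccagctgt
Rrm1 promoter: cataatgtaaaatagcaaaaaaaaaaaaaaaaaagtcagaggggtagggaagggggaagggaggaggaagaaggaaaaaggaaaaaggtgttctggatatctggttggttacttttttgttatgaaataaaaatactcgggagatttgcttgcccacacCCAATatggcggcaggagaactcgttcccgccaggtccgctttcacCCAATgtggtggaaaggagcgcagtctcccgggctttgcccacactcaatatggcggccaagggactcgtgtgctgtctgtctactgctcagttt
Rrm2 had 1 match, 50 bases before the start, and Rrm1 had 2. CCAAT was found in 3 of the 7 member windows, the third gene being Dctpp1, and in 37.4% of all 32851 windows of the same length. TATAAA matched in 0 of 7 member windows and in 13.6% of all windows. The E2F words TTTGGCGC, TTTCCCGC, TTTCGCGC and TTTGCCGC, read on both strands, matched in 0 of 7 and in 2.26%. No match says only that these letters are absent from these windows.

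For Rrm2b, a stretch within the gene is shown, because CATG is 1 spelling of the core of a p53 half-site and the mouse gene is known as a p53 target. The 100 bases are mm9 chr15:37884566-37884665 on the minus strand, the strand of the gene. Capitals mark a pair of CATG cores with 6 bases between them.
Rrm2b stretch: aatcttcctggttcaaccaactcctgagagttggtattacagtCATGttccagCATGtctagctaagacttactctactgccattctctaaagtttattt
This pair lies 6451 bases after the gene start, in the first intron of the full coding transcript and in an exon of 1 transcript annotated as a retained intron. It was the 1 match in the region of 7089 bases between the first exons that was searched, and 21.6% of 14165 windows of that length on the chromosome held such a pair. Only the cores and their spacing were searched, not the bases around them, so it is a match of letters and not a measured binding site.

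The exposure was visible in both assays. The p53 targets Cdkn1a, Mdm2, Ccng1 and Plk2, listed as a check, were all higher in cisplatin cells. Cdkn1a, which encodes the cell cycle inhibitor p21, had 66.6, 78.3 and 82.9 CPM in cisplatin cells and 30.7, 36.8 and 33.6 CPM in control cells in mRNA sequencing (log2 change 1.16 ± 0.09 SE, edgeR adjusted p = 5.57e-07). In RNAome sequencing its log2 change was 1.31 ± 0.26 (edgeR adjusted p = 0.00752). Counts in the tested genes ranged over 9498303 to 14814095 per mRNA library and 4990786 to 19331424 per RNAome library. The shallowest library, RNAome control 8.4.16, also stood apart on the first principal component, at 37.34 against −16.48 to 5.12 for the other RNAome libraries.

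Among the 8 genes, Rrm2 rose in mRNA sequencing and none of the other 7 passed the test there. A gene was called at an adjusted p under 0.05, by edgeR's quasi-likelihood test with Benjamini-Hochberg adjustment over all 14082 genes tested. Thus 1 of 8 members was called higher, where 18.0% of all tested genes were called higher and 19.2% lower. The members' median log2 change was 0.097, against 0.014 for all tested genes. Their median size of change, sign ignored, was 0.104, against 0.206 for all tested genes. All 8 members passed the filter on low counts in both assays.

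Rrm2 (NM_009104, mm9 chromosome 12, bases 25393106 to 25399011), the S-phase small subunit, had 330.3, 356 and 371 CPM in cisplatin cells and 306, 275 and 275 CPM in control cells. Every cisplatin sample was above every control sample. The log2 change was 0.31 ± 0.06 (SE, 95% interval 0.19 to 0.43), a 1.24-fold rise, with an edgeR adjusted p of 0.000687. Leaving out any 1 library kept the log2 change between 0.28 and 0.35, with an edgeR adjusted p of at most 0.00539.

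Rrm1 (NM_009103, mm9 chromosome 7), the large subunit, had 276, 298 and 285 CPM in cisplatin cells and 275, 273 and 249 CPM in control cells. The groups did not overlap, but cisplatin 8.3.3 and control 8.4.16 were nearly equal. Its log2 change of 0.11 ± 0.05 missed the threshold (edgeR adjusted p = 0.117), with a 95% interval of −0.0022 to 0.22. It was called when no scaling factor was used between libraries, at 0.21 (edgeR adjusted p = 0.00602); that setting also moved the median of all genes to 0.11.

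Rrm2b (NM_199476, mm9 chromosome 15, bases 37853707 to 37891073), the p53-linked small subunit, had 12.7, 10.6 and 13.2 CPM in cisplatin cells and 11.5, 10.7 and 9.01 CPM in control cells. The groups overlapped, since cisplatin 8.4.3 lay below 2 of the 3 control samples. Its log2 change was 0.23 ± 0.14 (95% interval −0.06 to 0.52, edgeR adjusted p = 0.209). The upper bound of 0.52, a 1.43-fold change, lay below the log2 changes of Cdkn1a, Mdm2, Ccng1 and Plk2, which were 1.14 to 2.30 in mRNA sequencing.

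Of the thymidylate genes, neither the synthesis nor the salvage enzyme was called. Tyms (NM_021288, chromosome 5), the methylating enzyme, had 89.9, 91.4 and 92.2 CPM in cisplatin cells and 88.6, 90.7 and 84.2 CPM in control cells. The 6 samples lay close together, and the log2 change was 0.05 ± 0.06 (95% interval −0.07 to 0.18, edgeR adjusted p = 0.499). Tk1 (NM_009387, chromosome 11), the salvage kinase, had 63.7, 58.1 and 57.5 CPM in cisplatin cells and 49.4, 54.6 and 63.5 CPM in control cells. Control 8.6.16 lay just under the highest cisplatin sample, and the log2 change was 0.10 ± 0.09 (95% interval −0.09 to 0.28, edgeR adjusted p = 0.413). It was 0.014 without control 8.4.16 (edgeR adjusted p = 0.924) and 0.19 without control 8.6.16 (edgeR adjusted p = 0.0519).

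Dut (NM_023595, chromosome 2), the dUTPase gene, was the member with the most negative log2 change in mRNA sequencing. It had 119.9, 114 and 109.6 CPM in cisplatin cells and 120.2, 121 and 144 CPM in control cells. The groups did not overlap, with cisplatin below, although cisplatin 8.3.3 and control 8.4.16 were nearly equal and control 8.6.16 stood above the rest. The log2 change was −0.17 ± 0.07 (95% interval −0.32 to −0.01), with an edgeR adjusted p of 0.0808. Without cisplatin 8.3.3 it was called, at −0.21 (edgeR adjusted p = 0.0468). Without control 8.6.16 it was −0.078 (edgeR adjusted p = 0.317).

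The last 2 genes act on finished deoxynucleotides. Samhd1 (NM_001139520, chromosome 2), the triphosphohydrolase, had 73.9, 72.3 and 71.8 CPM in cisplatin cells and 71.8, 69.5 and 76.0 CPM in control cells. Its log2 change was 0.01 ± 0.06 (95% interval −0.12 to 0.14, edgeR adjusted p = 0.953), with the sign turned under DESeq2 and RLE scaling. Dctpp1 (NM_023203, chromosome 7), the dCTP pyrophosphatase, had 132, 135 and 126 CPM in cisplatin cells and 117, 119 and 131 CPM in control cells. Control 8.6.16 fell within the cisplatin range, and the log2 change was 0.10 ± 0.06 (edgeR adjusted p = 0.202). Without control 8.6.16 it was called, at 0.15 (edgeR adjusted p = 0.0474), and without control 8.4.16 it was 0.063 (edgeR adjusted p = 0.51).

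Counted by samples alone, 2 of the 8 members had every cisplatin mRNA sample above every control sample, and 1 had every cisplatin sample below. Over all tested genes these shares were 24.9% and 23.9%.

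**Figure D1:**
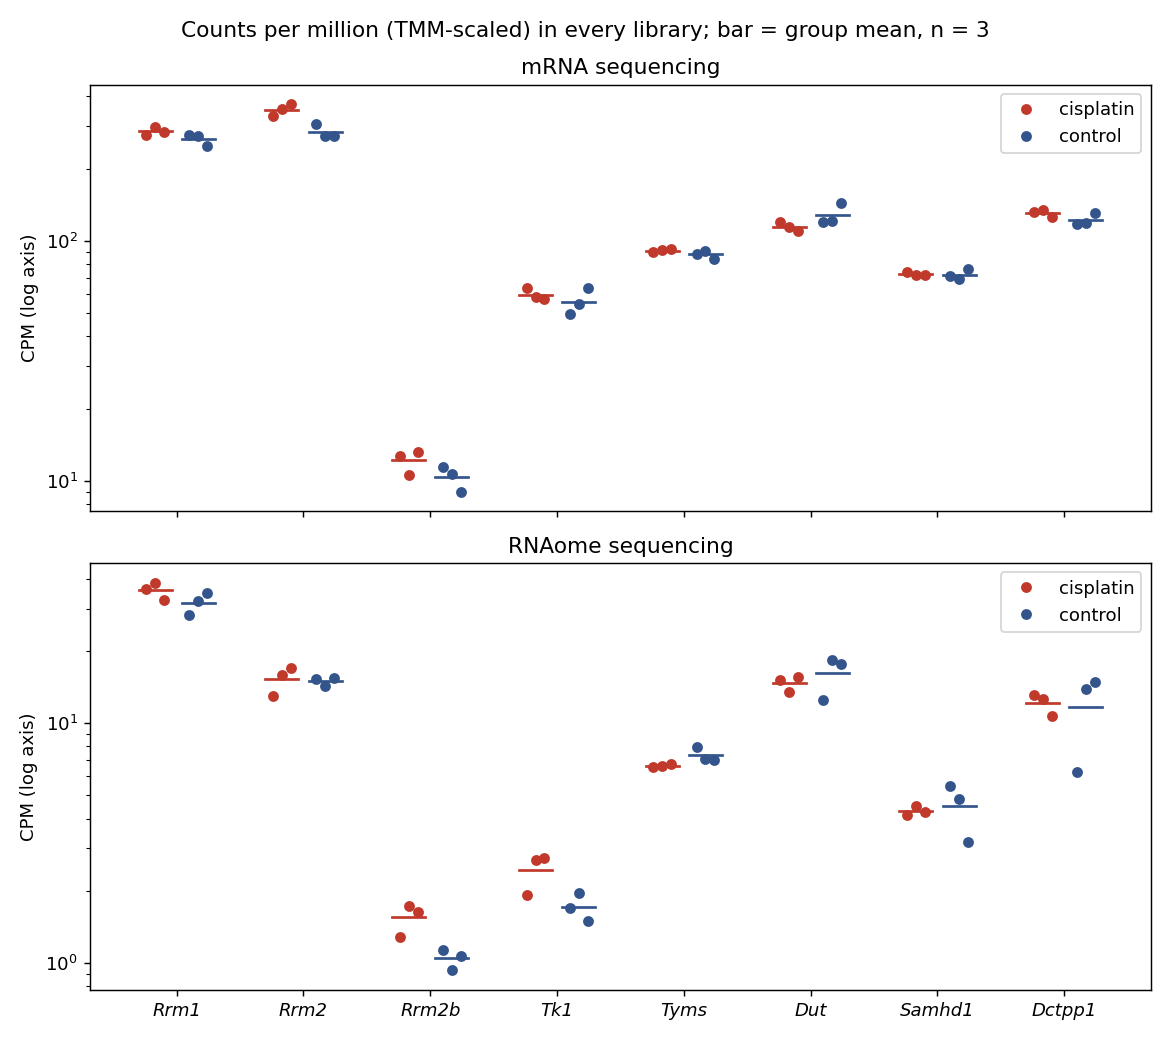
CPM of the 8 genes in every library on a log axis, with mRNA sequencing above and RNAome sequencing below. Points are single libraries, cisplatin in red and control in blue, and bars are means of 3; in mRNA sequencing the 3 Rrm2 cisplatin points, 330.3 to 371 CPM, lie above the 3 control points, 275 to 306 CPM.

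In RNAome sequencing 0 of the 8 genes were called by edgeR, where 0.972% of 9977 tested genes were called higher and 1.05% lower. At an unadjusted p under 0.05 the count was also 0 of 8, against 1372 of 9977 over all tested genes. DESeq2 called 0 of 8. The members' median log2 change was 0.022, against −0.001 for all tested genes.

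Rrm2 had 13.01, 15.9 and 16.99 CPM in cisplatin cells and 15.3, 14.3 and 15.4 CPM in control cells in RNAome sequencing. The groups overlapped, and the log2 change was 0.03 ± 0.16 (95% interval −0.31 to 0.36, edgeR adjusted p = 0.97). That interval includes the 0.31 measured in mRNA sequencing. Rrm1 had 36.4, 38.5 and 32.7 CPM in cisplatin cells and 28.2, 32.3 and 35.0 CPM in control cells, with a log2 change of 0.17 ± 0.16 (edgeR adjusted p = 0.735).

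Rrm2b had 1.28, 1.72 and 1.64 CPM in cisplatin cells and 1.13, 0.931 and 1.06 CPM in control cells in RNAome sequencing. All cisplatin samples were above all control samples, but the values rested on 22, 39 and 18 counts in cisplatin cells and 6, 10 and 10 counts in control cells. The log2 change was 0.59 ± 0.33 (95% interval −0.11 to 1.29, edgeR adjusted p = 0.469). At this depth a change of that size was not told apart from the spread between samples. The 95% interval took in the RNAome log2 change of the p53 target Mdm2 (1.14) and ended just below that of Ccng1 (1.30).

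Tk1 also rested on few RNAome counts, 33, 61 and 30 in cisplatin cells and 9, 21 and 14 in control cells. It had 1.93, 2.70 and 2.73 CPM in cisplatin cells and 1.70, 1.96 and 1.49 CPM in control cells, with a log2 change of 0.50 ± 0.28 (edgeR adjusted p = 0.474). Cisplatin 8.3.3 lay just under the highest control sample, so the groups overlapped. Tyms had 6.54, 6.63 and 6.72 CPM in cisplatin cells and 7.94, 7.08 and 7.03 CPM in control cells. Its cisplatin samples were all below the control samples, by a small margin, at a log2 change of −0.14 ± 0.17 (edgeR adjusted p = 0.817).

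Dut had 15.2, 13.4 and 15.5 CPM in cisplatin cells and 12.5, 18.3 and 17.6 CPM in control cells, with a log2 change of −0.16 ± 0.17 (edgeR adjusted p = 0.78). Samhd1 had 4.14, 4.51 and 4.27 CPM in cisplatin cells and 5.48, 4.84 and 3.19 CPM in control cells. Dctpp1 had 13.1, 12.6 and 10.7 CPM in cisplatin cells and 6.24, 13.9 and 14.8 CPM in control cells. For these 3 genes the control samples were spread more widely than the cisplatin samples and enclosed them. The Samhd1 and Dctpp1 log2 changes were −0.03 ± 0.22 and 0.02 ± 0.22, each with the sign turned in the fit without control 8.4.16, at 0.09 for Samhd1 and −0.23 for Dctpp1. By samples alone, 1 member lay wholly above and 1 wholly below the control samples, where the shares over all tested genes were 9.93% and 9.09%.

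The difference between the RNAome and the mRNA effect was tested directly, in 1 fit of the 12 libraries over the 13069 genes tested in both. That fit treated libraries of the same sample as independent. For Rrm2 this difference, RNAome minus mRNA, was −0.28 ± 0.16 on the log2 scale (edgeR adjusted p = 0.849), with a 95% interval of −0.61 to 0.06. For Rrm2b it was 0.38 ± 0.34, for Tk1 0.41 ± 0.29, and for the other 5 genes between −0.18 and 0.06. By edgeR 0 of 8 members were called, 0 of 8 at an unadjusted p under 0.05. Over all genes 0% were called, with 770 at an unadjusted p under 0.05. The rise of Rrm2 in poly(A) RNA was thus not shown to differ from its change in total RNA.

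**Figure D2:**
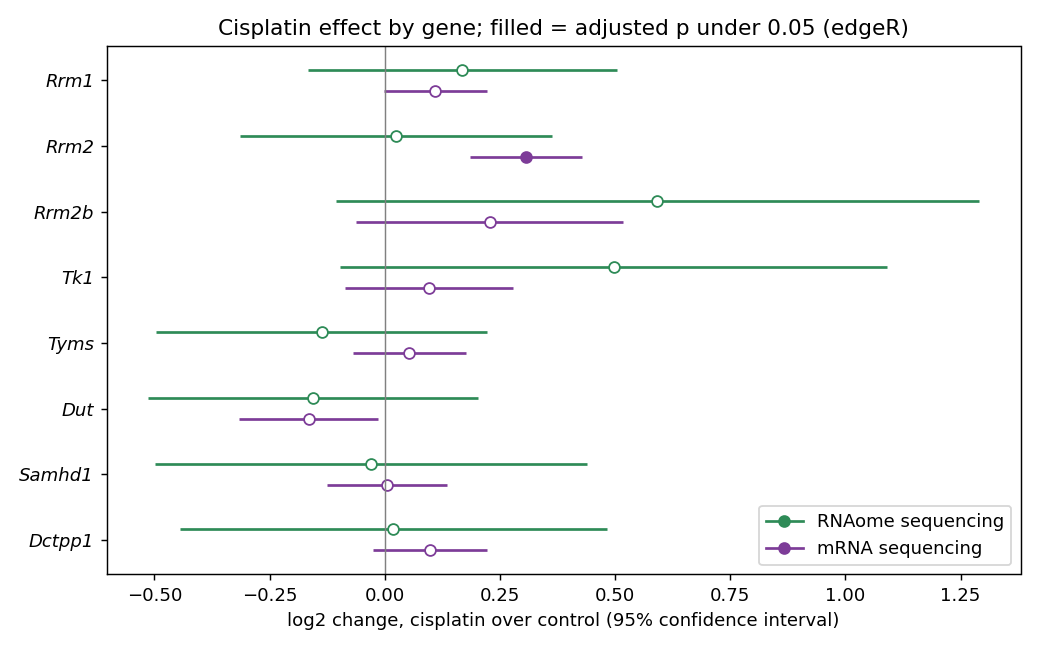
Log2 change of each gene, cisplatin over control, with RNAome sequencing in green and mRNA sequencing in purple; points are edgeR estimates and lines 95% intervals. The filled point is the 1 call, Rrm2 at 0.31 in mRNA sequencing, and the RNAome intervals are wider for every gene.

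Rrm2 was set against its partner subunit in the same library. In mRNA sequencing there were 119.5, 119.3 and 130.3 Rrm2 counts per 100 Rrm1 counts in cisplatin cells and 111, 101 and 110.4 in control cells. All 3 cisplatin ratios were above the control ratios, with means of 123 ± 6.28 in cisplatin cells and 107 ± 5.78 in control cells (SD, n = 3 each, exact permutation p = 0.1, two-sided, the smallest that 3 against 3 can give). In RNAome sequencing the ratio was 35.8, 41.3 and 51.9 in cisplatin cells and 54.4, 44.4 and 44.1 in control cells, and the groups overlapped (exact permutation p = 0.4, two-sided).

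The 2 small subunits were also set against each other. In RNAome sequencing there were 9.87, 10.8 and 9.63 Rrm2b counts per 100 Rrm2 counts in cisplatin cells and 7.41, 6.49 and 6.90 in control cells. Means were 10.1 ± 0.639 in cisplatin cells and 6.93 ± 0.458 in control cells (SD, n = 3 each), a log2 difference of 0.54 (exact permutation p = 0.1, two-sided). These ratios rest on 18 to 39 Rrm2b counts in cisplatin cells and 6 to 10 in control cells, so the small SD is no measure of their precision. With the abundance table, the second table deposited for these libraries, the log2 difference was 0.36 (exact permutation p = 0.2, two-sided). The groups then overlapped, with cisplatin 8.3.3 at 8 and control 8.4.16 at 8.33. In mRNA sequencing the ratio was 3.85, 2.97 and 3.56 in cisplatin cells and 3.75, 3.88 and 3.28 in control cells, and the groups overlapped. Its log2 difference was −0.08 (exact permutation p = 0.6, two-sided), and 0.03 without cisplatin 8.4.3.

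**Figure D3:**
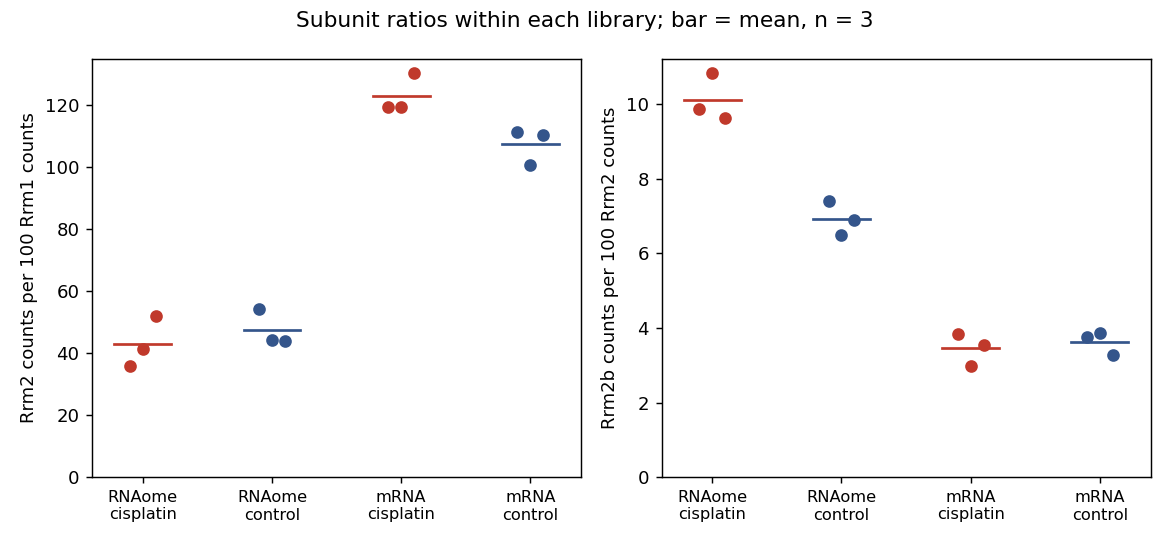
Ratios of subunit counts within each library, Rrm2 per 100 Rrm1 on the left and Rrm2b per 100 Rrm2 on the right; points are libraries and bars means of 3. The cisplatin points lie above the control points for Rrm2 per 100 Rrm1 in mRNA sequencing and for Rrm2b per 100 Rrm2 in RNAome sequencing.

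Levels were compared between genes as CPM per kilobase of the longest coding transcript in the GENCODE annotation of mm9. In cisplatin cells in mRNA sequencing the order was Dctpp1 (194), Rrm2 (161), Rrm1 (71.6), Dut (58.7), Tk1 (41.5), Tyms (28.8), Samhd1 (18.5) and Rrm2b (2.67), and the samples of no neighbouring pair overlapped. In control cells the order was the same, with Dctpp1 at 181 and Rrm2b at 2.28, and there the samples of Rrm1 (66.4) and Dut (65.8) overlapped. Rrm2b was thus the member with the lowest level per length in both groups, and the Dctpp1 value rests on a transcript of 676 bases.

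In RNAome sequencing Dctpp1 was again first and Rrm2b last by mean, at 17.9 and 0.339 CPM per kilobase in cisplatin cells and 17.2 and 0.229 in control cells. The control samples of Dctpp1, at 9.23 to 21.9, overlapped those of Dut, at 6.40 to 9.41. Rrm1 stood above Rrm2 in RNAome sequencing, at 8.97 against 6.98 CPM per kilobase in cisplatin cells and 7.96 against 6.85 in control cells. This is the reverse of their order in mRNA sequencing.

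The level of each member was tested between assays, over all 12 libraries with treatment as a covariate. Libraries of the same sample were treated as independent in this fit. The scaling factors between libraries balance the bulk of genes, so a difference is relative to other genes and not a share of counts. In CPM every member was lower in RNAome libraries, with Rrm1 at a mean of 35.9 against 286 in cisplatin cells. Of the 8 members, 4 were relatively higher in RNAome than in mRNA libraries and 3 relatively lower, where 32.3% of 13069 genes were higher and 34.4% lower. Dut (log2 difference 0.72 ± 0.08), Rrm1 (0.66 ± 0.08) and Rrm2b (0.60 ± 0.17) were relatively higher in RNAome libraries, with edgeR adjusted p-values of at most 0.00273. Dctpp1 was relatively higher by 0.31 ± 0.10 (edgeR adjusted p = 0.0126), a call lost with the abundance tables, at 0.15 (edgeR adjusted p = 0.225). It was also lost without RNAome control 8.5.16 or 8.6.16, at 0.22 and 0.21.

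Tk1 (−1.07 ± 0.13) and Rrm2 (−0.73 ± 0.08) were the members with the most negative differences, followed by Samhd1 (−0.38 ± 0.09), with edgeR adjusted p-values of at most 0.000794. The Tk1 difference ranked at percentile 13.5 of all genes and that of Rrm2 at percentile 22.2. Tyms differed by −0.03 ± 0.08 (edgeR adjusted p = 0.771). The 2 library types differ in selection, fragmentation and adapters, and their parts in these values were not tested.

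**Figure D4:**
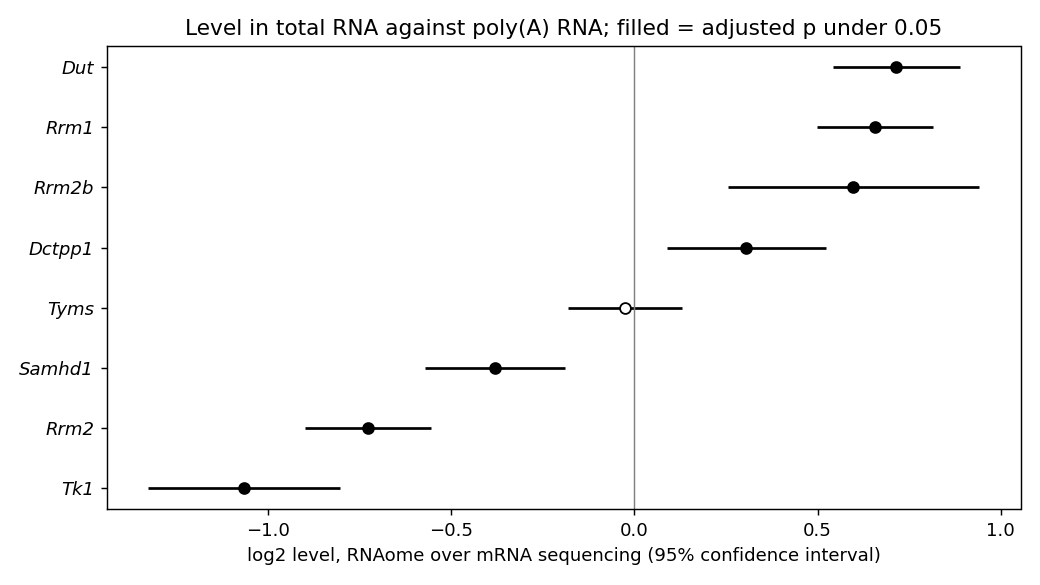
Log2 level of each gene in RNAome over mRNA sequencing, relative to other genes after scaling between the 12 libraries, and not a share of counts. Points are edgeR estimates, lines 95% intervals and filled points calls. Dut (0.72) and Tk1 (−1.07) mark the 2 ends.

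The tables also count reads in genomic regions given by coordinates, a readout that the gene rows do not hold. Regions lying wholly inside 1 gene and touching no other were summed per gene. Of the 8 members, 6 could be tested in mRNA sequencing. Among them Dut was called lower, where 7.51% of 7953 genes were higher and 6.34% lower. Its 5 regions, with 248 of their 9177 bases in annotated exons, held 220, 249 and 164 counts in cisplatin cells and 186, 285 and 278 counts in control cells. These raw counts overlap and depend on library depth. The log2 change was −0.30 ± 0.10 (edgeR adjusted p = 0.0484). The call was lost without any 1 of the 3 cisplatin samples, at log2 changes of −0.34 to −0.28, and without control 8.6.16, at −0.20 (edgeR adjusted p = 0.233).

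Samhd1 regions, with 4640 of their 11939 bases in annotated exons, held 58, 74 and 56 counts in cisplatin cells and 38, 54 and 42 counts in control cells. Their log2 change was 0.44 ± 0.17 (edgeR adjusted p = 0.0884). Rrm2 regions, with 574 of 2538 bases in annotated exons, held 111, 137 and 78 counts in cisplatin cells and 79, 104 and 94 in control cells. Their log2 change of 0.17 ± 0.13 did not pass (edgeR adjusted p = 0.445). Rrm1, Tyms and Dctpp1 regions had log2 changes of 0.11 to 0.16 and were not called. In RNAome sequencing 0 of 6 members were called by edgeR, with 0.867% of 5654 genes higher and 0.513% lower. The 1 member at an unadjusted p under 0.05 was Tyms, whose regions had 2291 of 9598 bases in annotated exons. They held 33, 41 and 27 counts in cisplatin cells and 6, 9 and 17 in control cells (log2 change 0.72 ± 0.31, edgeR adjusted p = 0.292). That change was 0.395 without control 8.5.16 and 1.16 without control 8.6.16.

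Rrm2b and Tk1 could not be tested by regions. The Rrm2b regions touching no other gene held 4, 4 and 6 RNAome counts in cisplatin cells and 0, 5 and 2 in control cells. Tk1 is overlapped by Afmid on the opposite strand. A further Rrm2b region, mm9 chromosome 15, bases 37867105 to 37874252, contains the pseudogene Gm3362. It held 5035 to 6570 mRNA counts in cisplatin cells and 4235 to 7322 in control cells, far above the 135 to 160 and 105 to 153 counts of the Rrm2b row itself. Those reads cannot be assigned to Rrm2b. Tyms and Samhd1 also overlap other annotated genes, Gm17448 and a miRNA, and whether counting used strand is not stated.

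The other genes of the pathway were read from 5 lists: the folate cycle with thymidylate kinase, salvage and turnover, pool cleaning and uracil removal, reductase partners and regulators, and pyrimidine synthesis. In mRNA sequencing, of their 67 tested genes, 10 were called higher and 12 lower (19 and 11 with library totals only, 7 and 12 by DESeq2). Over all tested genes 18.0% were higher and 19.2% lower, so these counts are not above the background, and the same shares apply to each list below. In RNAome sequencing edgeR called 1 of 61, Nme4, where 0.972% of all tested genes were higher and 1.05% lower. DESeq2 and library totals only called 0 of these genes. At an unadjusted p under 0.05 there were 12 of 61, against 1372 of 9977 over all tested genes.

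In the folate cycle, which feeds the methyl group to TYMS, 4 of 14 genes fell in mRNA sequencing and the other 10 did not pass. The list median was −0.082, and 0.014 with library totals only, where 3 genes rose and 3 fell. Mthfd2, a mitochondrial one-carbon enzyme, had 77.4, 70.4 and 59.7 CPM in cisplatin cells and 113, 108 and 115 CPM in control cells (log2 change −0.69 ± 0.08, edgeR adjusted p = 1.32e-05). Mthfd1l (−0.42) and Mtr (−0.28), which act in mitochondrial formate release and methionine synthesis, also fell. In RNAome sequencing Mthfd2, Mthfd1l and Mtr each had all cisplatin samples below all control samples, as did 9.09% of all tested genes. These 3 genes were not called there (Mthfd2 −0.62 ± 0.22, edgeR adjusted p = 0.183). The median of the 14 folate cycle genes in RNAome sequencing was 0.11, against −0.001 for all tested genes, so the list as a whole was not lower there.

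In salvage and turnover 5 of 18 tested genes rose (4 with RLE scaling or by DESeq2, 7 with library totals only) and 3 fell, with a list median of 0.102. Ada, the adenosine deaminase gene, had 15.2, 19.3 and 15.9 CPM in cisplatin cells and 7.75, 7.39 and 8.43 CPM in control cells (log2 change 1.10 ± 0.13, edgeR adjusted p = 1.83e-05). Nme4, a mitochondrial nucleoside diphosphate kinase, rose by 0.55 ± 0.06 in mRNA sequencing and by 0.95 ± 0.24 in RNAome sequencing (edgeR adjusted p = 0.0483 in the second, a call lost by DESeq2 and with library totals only). Nt5c, a deoxynucleotidase, rose by 0.61, with −0.15 ± 0.36 in RNAome sequencing. Slc29a1, the equilibrative nucleoside transporter ENT1, fell by 0.32.

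Of 9 genes of pool cleaning and uracil removal, Mbd4 (0.29) rose and Tdg (−0.25) fell, both of them DNA glycosylases that act on mismatched thymine or uracil. Among 15 reductase partners and regulators, the repressor E2f7 rose (0.30), and the activator E2f3 (−0.44) and the checkpoint kinase Atr (−0.28) fell. In pyrimidine synthesis 3 of 11 genes rose (1 by DESeq2) and 2 fell. Cad, which encodes the enzyme of the first steps, rose by 0.33 ± 0.05, with 598, 675 and 689 CPM in cisplatin cells and 516, 524 and 519 CPM in control cells. Uck2, a uridine-cytidine kinase, fell by 0.61 ± 0.05. Uck1, its paralog, rose (0.24), and Prps1, which makes the ribose phosphate donor PRPP, fell (−0.26).

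Rrm2 was set beside the replication machinery, which is made in the same phase of the cycle. Of 33 such genes edgeR called 3 higher and 7 lower in mRNA sequencing, where 18.0% of all tested genes were higher and 19.2% lower. Their median was −0.045, against 0.014 for all tested genes. With library totals only 8 rose and 3 fell (median 0.050), and DESeq2 called 0 higher and 7 lower. Pola1, the catalytic subunit of DNA polymerase alpha, fell by 0.66 ± 0.06 and Mcm6, a helicase subunit, by 0.25 ± 0.04. Rfc1 (−0.25), of the clamp loader, and Rpa1 (−0.17), which binds single-stranded DNA, also fell. The 3 genes called higher by edgeR were Prim1 (0.19), Gins3 (0.27) and Ccne2 (0.22), none of which DESeq2 called. The lists were compared by counts and medians only.

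**Figure D5:**
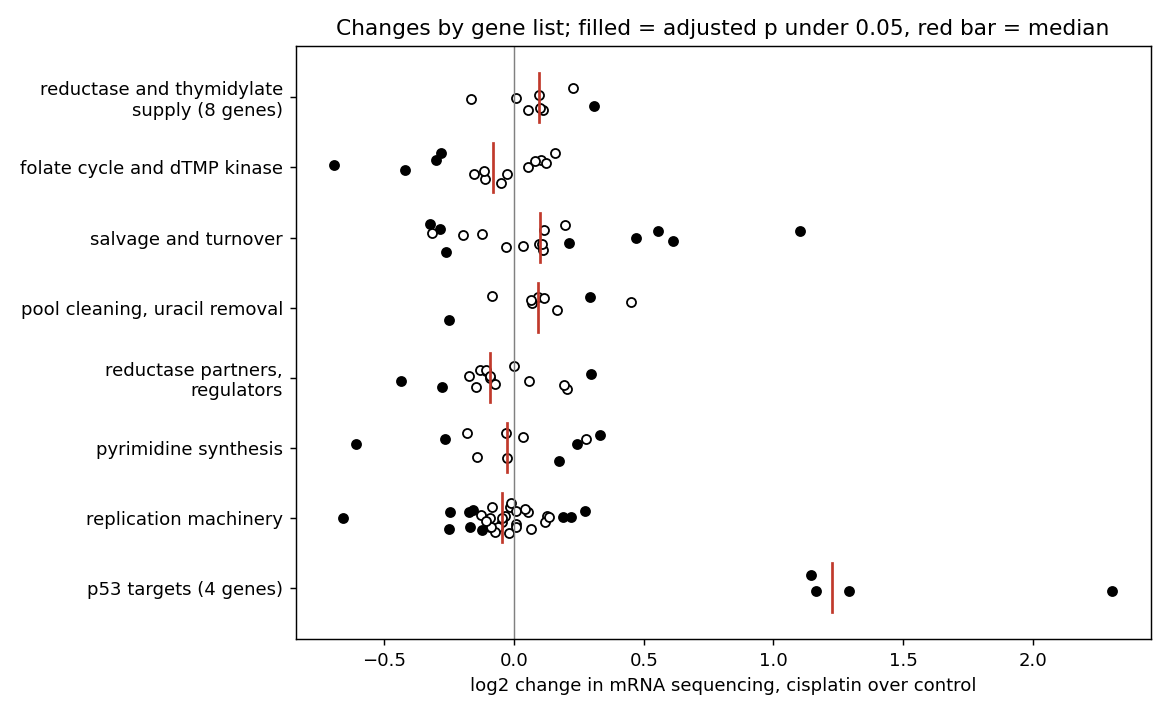
Log2 change in mRNA sequencing, cisplatin over control, of each tested gene by list; filled points have an edgeR adjusted p under 0.05 and red bars are list medians. The 8 genes have a median of 0.097, the folate list −0.082, and the 4 p53 targets lie at 1.14 to 2.30.

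Cell type markers were read in the same libraries. Of 8 ES cell markers 5 fell in mRNA sequencing, where 19.2% of all tested genes were lower, and their summed level was 4359 to 4575 CPM in cisplatin cells and 4993 to 5271 CPM in control cells. Feeder fibroblast markers summed to 39.8 to 84.8 CPM in cisplatin cells and 48.2 to 72.4 CPM in control cells over the 10 of 12 that could be tested. Of the 12, Col1a1, with 181 to 441 counts in cisplatin cells and 234 to 262 in control cells, had the most reads. Dcn and Lum had no matching row in either assay. In RNAome sequencing no feeder marker passed the filter on low counts. Of 9 trophectoderm and endoderm markers 6 could be tested, summing to 109 to 122 CPM in cisplatin cells and 75.2 to 107 CPM in control cells. Most of that sum was the keratins Krt8 and Krt18, with means of 57.2 and 42.5 CPM in cisplatin cells. Only Krt18 was called, higher (0.37), where 18.0% of all tested genes were higher. Eomes (0.01), Gata4 (−0.18), Gata6 (0.32) and Dab2 (−0.20) were not called. The part of these shifts in the Rrm2 rise was not tested. In these bulk samples fewer cells of a type and less RNA per cell cannot be told apart.

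The genes whose levels ran most like Rrm2 over the 12 libraries, after centring within each assay, were Psrc1 (Pearson r = 0.775), Clic1 (0.76), Lefty1 (0.757) and Nme2 (0.757) of 2506 genes compared. For Rrm2b they were Zfp748 (0.853), Dennd2c (0.843), Sdhc (0.833) and Aldh2 (0.829) of 2507. Genes compared had a mean log2 CPM of at least 3 in both assays. Rrm2b itself lay below that floor in RNAome sequencing, at 0.931 to 1.72 CPM on 6 to 39 counts. All these correlations are descriptions over libraries that share their samples and treatment.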

How the data were processed

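Long RNA was measured in 12 libraries, mRNA and RNAome sequencing of 6 samples, and the small RNA tables were not used here. The values are raw read counts per transcript or genomic region deposited by the authors. Per the submitters' processing notes, Bowtie, TopHat and edgeR were used with build mm9; versions, annotation and strand use are not stated, nor what distinguishes the expression table, used here, from the abundance table. Counts were tested with edgeR 4.0.16 (R 4.3.3): TMM scaling, filterByExpr, quasi-likelihood test, two-sided, Benjamini-Hochberg over all tested genes, called under 0.05. SE is the log2 change over the root of F. DESeq2 1.42.0 was an alternative. Level and difference fits used 12 libraries. Subunit ratios had exact permutation tests (scipy 1.17.1). The scripts were tested on simulated data.

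Isoform rows of Dut, Samhd1 and Tyms differed by at most 46 counts in any library, so these transcripts were not told apart. Sample codes were shared by the assays. The deviations of the same sample in both assays correlated at 0.13 to 0.579 over 2401 genes. The correlations between different samples are not reported here, so the pairing of libraries rests on the shared codes. The members and lists were chosen with earlier results of these data known. Named were all members, up to 4 called genes of each list with the smallest adjusted p, the p53 targets, and the 4 genes most like Rrm2 and Rrm2b; Prim1, Gins3 and Ccne2 were named after their values were seen, and 1 gene that the rule names is not reported here. Alternatives were other scalings, filters, tables and transcripts, all table features, and left-out libraries. Depth and precision: intervals reflect the spread between 3 samples.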

Additional observations from a re-analysis of the deposited data

How the results depend on the processing

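Rrm2 stayed called in mRNA sequencing under all alternatives run. With library totals only, 4 members were called higher (Rrm1, Rrm2, Tyms and Dctpp1), with 3852 genes higher and 1688 lower in mRNA sequencing and 7 higher and 43 lower in RNAome sequencing; the share of calls that were higher was then 69.5% (48.4% with TMM) in mRNA and 14% (48%) in RNAome sequencing, against 35% by DESeq2 in RNAome. With all features fitted, mRNA calls were 4619 higher and 4588 lower and RNAome calls 170 higher, as more rows were tested. DESeq2 called 56 RNAome genes higher. Without a low-count filter, 86 genes were higher in RNAome regions. With the sample code as a replicate block, the assay difference called 13 genes lower and no member, and Dut was at 0.019; the block changed no other call of a member. Samhd1 turned sign in mRNA sequencing by DESeq2 (−0.009), RLE factors (−0.002) and no filter (−0.006). RNAome sequencing turned for Rrm2 (−0.136) and Dctpp1 (−0.060) with library totals and for Samhd1 (0.001) with all features. The cause was not tested.

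Leaving out 1 library gave 1 to 2 members higher and 0 to 1 lower in mRNA sequencing, and 0 to 1 lower in mRNA regions. RNAome calls were 40 to 91 higher and 38 to 124 lower, lowest without cisplatin 8.4.3; RNAome region calls were 11 to 54 higher (lowest without control 8.6.16) and 9 to 36 lower (lowest without cisplatin 8.3.3). The assay difference called 0 to 2 genes higher and 0 to 40 lower, highest without RNAome control 8.4.16. Signs turned for mRNA Samhd1 (−0.028 to 0.041), for RNAome Rrm2 (−0.051 to 0.133), Samhd1 (−0.241 to 0.093) and Dctpp1 (−0.230 to 0.199), and for RNAome Dut regions (−0.250 to 0.423). They also turned for the assay difference of Rrm1 (−0.077 to 0.106), Dut (−0.202 to 0.043) and Samhd1 (−0.312 to 0.046). The mRNA log2 difference of Rrm2b per 100 Rrm2 ranged over −0.158 to 0.029, and that of Rrm2b as a percentage of both small subunits over −0.153 to 0.028. Leaving out libraries in the assay and ratio comparisons was added after seeing the data. RNAome counts under 100 limit Rrm2b and Tk1 in all 6 libraries, Samhd1 in 5 and Tyms in 4, and Rrm2, Dut and Dctpp1 in control 8.4.16.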
